A study of Drosophila melanogaster with 4 samples.

Results

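Segmentation genes divide the Drosophila embryo into repeated units, and 10 of them were examined here: engrailed (en), invected (inv), sloppy paired 1 and 2 (slp1, slp2), drumstick (drm), odd skipped (odd), even skipped (eve), hedgehog (hh), Dichaete (D) and gooseberry (gsb). They were chosen by symbol from 14794 genes in the deposited tables, with their fold changes in those tables already known, so their own folds are given as a description and carry no test. All 10 symbols were found in both tables. The label of a segmentation set was true to the genes' known roles, but eve lay apart from the other 9 in the table for caudal visceral mesoderm. That departure of eve was already known when the genes were chosen.

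In the early embryo, pair-rule factors such as eve, odd and the slp genes set up stripes, and segment polarity genes then keep the stripes in place. Cells that express en and inv secrete Hedgehog, and the neighbouring cells, which use slp and gsb, keep up expression of the Wnt ligand wg. Many of these genes are used again later in the nervous system, gut and mesoderm, and eve is then known from progenitors of heart and dorsal muscle, from a subset of neurons and from the anal plate.

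RNA of 4 cell populations of Drosophila melanogaster embryos had been sequenced, with 1 library each, after sorting by flow cytometry. Caudal visceral mesoderm (CVM) cells, founders of the longitudinal gut muscles that migrate along the trunk, and the cells left after removing them came from embryonic stages 10 to 13. Hemocytes (HC), the migratory blood cells, and the corresponding non-hemocytes came from stages 12 to 16. The sources used here give no genotype, sorting reporter or age in hours, and no depth for any library.

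Each deposited table, called the CVM table and the HC table here after its name, sets a condition q2 against a condition q1. No label says which of these is the sorted population, so every fold below is on the log2 scale as q2 over q1, a positive value meaning higher in q2. A gene is called when the authors' q-value is under 0.05, and this call compares 2 libraries with no replicate check. Standard errors (SE) are those that the authors' test statistic implies. They rest on 1 library per condition, so they hold no variation measured between replicates, and the headers do not say what spread they cover. In the CVM table the median fold of all 9580 measured genes was 0.00467, and in the HC table that of 10088 genes was 0.62, so HC folds are also given relative to 0.62. In bulk RNA, fewer cells that express a gene and less RNA per cell cannot be told apart.

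All 4 fixed markers of the caudal visceral mesoderm had a call toward q1 in the authors' deposited CVM table, with HLH54F, the bHLH factor that specifies this tissue, at -6.04. Of 6 measured hemocyte markers, 5 were called higher in q1 of the authors' deposited HC table, led by the peroxidasin gene Pxn at -6.35. The locus of Pxn is shared with another gene. Hemocyte markers also lay toward q1 in CVM, where 3 of 6 were called in the authors' deposited table (Sr-CI at -1.77, Pxn at -1.26 and the GATA factor srp at -0.86) and the median was -0.93. All 5 muscle markers were called higher in q1 of CVM, with a median of -5.12. Epidermal markers had medians of 0.73 in CVM, where 2 of 6 were called higher in q2, and 1.66 in HC, where 3 of 6 were. They ranged in the authors' deposited CVM table from 0.00073 for the cadherin gene shg, below the table's median, to 1.38 for grh, an epidermal transcription factor. Neuroblast markers had medians of 0.69 in CVM (1 of 5 called higher in q2) and 1.86 in HC (3 of 4). Of all tested genes, 0.728% in CVM and 7.05% in HC were called higher in q2, and 8.23% and 5.92% higher in q1. Relative to the table, the HC medians of epidermal and neuroblast markers were 1.04 and 1.24. What part these cell types have in the folds below was not tested.

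Apart from eve in CVM, each of the 10 genes was higher in q2 of every table in which it was measured. In the CVM table, 5 of the 10 were called higher in q2 (en, inv, slp2, drm and D), where 0.728% of 10026 tested genes were. In the HC table, 8 of 9 measured genes were called higher in q2, against 7.05% of 10433 genes. By size, 7 of 10 were at least 2-fold higher in q2 of the CVM table (4.58% of all measured genes) and 9 of 9 in the HC table (35.4% of all measured genes, or 16% after centring, under which the 9 also passed). The rule used these same contrasts, and nothing is read from the distance between the members' counts and the background. Median folds were 1.16 in CVM and 2.20 in HC, or 1.58 in HC relative to the table's median.

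**Figure D1:**
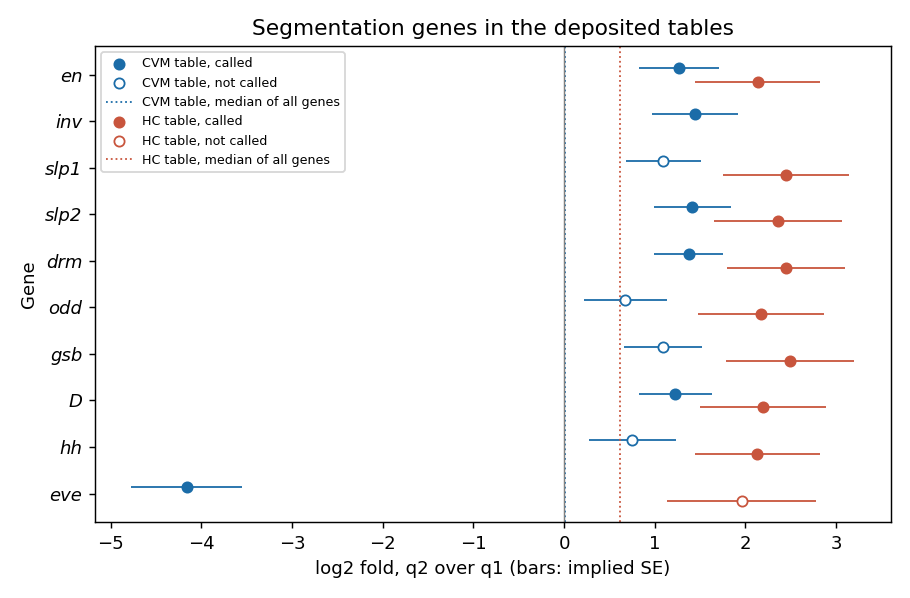
Log2 fold (q2 over q1, horizontal axis) of each of the 10 genes in the authors' deposited CVM table (blue) and HC table (red). Points are filled where the authors called the gene, bars are the implied SE, dotted lines are the tables' medians, and inv has no HC point. Every plotted fold lies right of 0 except that of eve in CVM, at -4.16.

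Posterior compartment genes, en and inv, were higher in q2 wherever they were measured. For en (FBgn0000577, chromosome 2R, 7411509 to 7415715, BDGP5), a homeodomain repressor that marks posterior compartments, the authors' deposited CVM table gave a log2 fold of 1.27 (SE 0.44, q-value 0.0476), or 2.41-fold higher in q2. In the authors' deposited HC table it had 2.13 (SE 0.69, q-value 0.0241), or 4.39-fold. That is just inside the threshold for CVM, where only 2.15% of measured genes had a higher fold.

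Its paralog inv (FBgn0001269, 2R, 7361970 to 7394688) had the highest fold of the 10 in the authors' deposited CVM table, at 1.44 (SE 0.47, q-value 0.0298), and 142 of 9580 genes exceeded it. The authors' test failed for inv in HC, so this gene has no HC value. The difference between en and inv in CVM was -0.18, well within their combined SE of 0.65. These homeodomain genes lie 16820 bases apart.

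Hedgehog itself, the signal that en-positive cells secrete, was called higher in q2 of HC and not called in CVM, a difference between tables of 1.38 with a combined SE of 0.84. For hh (FBgn0004644, chromosome 3R, 18952226 to 18967881), the authors' deposited CVM table gave 0.75 (SE 0.48, q-value 0.459), which was not called and whose 95% interval of -0.18 to 1.69 includes 0. In the authors' deposited HC table, hh was called at 2.13 (SE 0.69, q-value 0.0240), nearly the same fold as en. The hh locus is shared with CG31457, which had 0.23 and -0.65 in the authors' deposited CVM and HC tables and was called in neither. How reads were divided between these overlapping genes is uncertain.

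The forkhead factors slp1 and slp2, which hold en off and keep wg on in the neighbouring cells, had folds of similar size. In the authors' deposited CVM table, slp2 (FBgn0004567, chromosome 2L, 3836842 to 3839201) had 1.42 (SE 0.43, q-value 0.0134) and was called. Its neighbour slp1 (FBgn0003430, 2L, 3825680 to 3827137) had 1.09 (SE 0.41) and a q-value of 0.0802 in the same authors' deposited table, so it was not called. That these paralogs fell on different sides of the threshold does not set them apart, since they differed by -0.32 with a combined SE of 0.59. Both were called in the authors' deposited HC table, slp1 at 2.45 (q-value 0.00783) and slp2 at 2.36 (q-value 0.0127).

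For gsb (FBgn0001148, 2R, 20949502 to 20952166), a Pax-family factor that keeps up wg expression, the authors' deposited CVM table gave 1.09 (SE 0.43, q-value 0.0984), a 2.13-fold difference that was not called. In the authors' deposited HC table gsb had the highest fold of the 9 measured genes, at 2.50 (SE 0.71, q-value 0.00698), or 5.64-fold. Its adjacent paralog gooseberry-neuro (gsb-n), which is known from the nervous system, had 1.15 (not called) and 2.58 (called) in the authors' deposited CVM and HC tables. The pair differed by -0.06 in CVM and -0.09 in HC, with combined SEs of 0.68 and 1.01.

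Of the odd-skipped zinc finger family, drm had the smallest q-value, in each table, among those of the 10 that were higher in q2. For drm (FBgn0024244, 2L, 3539251 to 3548086), a gene also known from patterning of the hindgut and foregut, the authors' deposited CVM table gave 1.38 (SE 0.38, q-value 0.00528), or 2.59-fold. The authors' deposited HC table gave 2.45 (SE 0.65, q-value 0.00338), or 5.46-fold. The pair-rule gene odd (FBgn0002985, 2L, 3604222 to 3606748) had the lowest positive fold of the 10 in the authors' deposited CVM table, 0.67 (SE 0.46, q-value 0.516), with a 95% interval from -0.22 to 1.57. In HC odd was called at 2.17 (SE 0.70, q-value 0.0224) in the authors' deposited table. The difference between drm and odd was 0.70 in CVM (combined SE 0.59) and 0.28 in HC (combined SE 0.95), so neither exceeded 2 SE.

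Between drm and odd lies sob, the sister of odd, which was not among the 10. It had 1.20 in CVM (q-value 0.164) and 1.93 in HC (q-value 0.0514) in the authors' deposited tables, called in neither and higher in q2 in each. The more distant relative bowl was called in both of the authors' deposited tables, at 0.68 (q-value 0.00703) and 1.82 (q-value 0.000175).

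The Sox-family HMG factor D (FBgn0000411, chromosome 3L, 14168701 to 14171720), used in segmentation and then in the nervous system and hindgut, had 1.23 (SE 0.41, q-value 0.0315) in the authors' deposited CVM table. Its HC fold was 2.20 (SE 0.70, q-value 0.0204) in the authors' deposited table. These correspond to 2.34-fold and 4.58-fold higher in q2.

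The pair-rule homeodomain gene eve (FBgn0000606, 2R, 5866746 to 5868284) was the exception. In the authors' deposited CVM table eve had a log2 fold of -4.16 (SE 0.61, q-value 1.19e-09), or 17.9-fold higher in q1, where 8.23% of tested genes were called in that direction. Its 95% interval ran from -5.36 to -2.96, while the other 9 genes had folds between 0.67 and 1.44. Only 1.81% of measured genes had a lower fold in CVM.

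In HC the direction of eve was that of the other genes. There eve had 1.96 (SE 0.82, q-value 0.0893) in the authors' deposited table, 3.89-fold higher in q2, which was the lowest of the 9 measured genes and was not called. Its 95% interval of 0.35 to 3.57 holds the folds of all the others. The HC fold of eve was 6.12 above its CVM fold, with a combined SE of 1.02. This difference is between separate pairs of libraries, which differ in the sorted cell type, in the remaining cells set against it, and in stage. It has no replicate check and was not tested over samples.

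For the other 8 genes measured in both tables, the HC fold exceeded the CVM fold in every case, by 0.86 (en) to 1.5 (odd), with a median of 1.21. Over the 8927 genes measured in both, the median difference was 0.65. Relative to each table's own median the 8 genes differed by 0.25 to 0.89. The largest difference came to 1.80 combined SEs before centring, so none of the 9 apart from eve differed between the tables by more than 2 SEs. Nothing in the labels or headers says that q1 means the same thing in each table. By the fixed markers, however, q1 was the side of the sorted cell type in each. All 4 caudal visceral mesoderm markers lay toward q1 in CVM, and all 6 measured hemocyte markers did in HC.

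**Figure D2:**
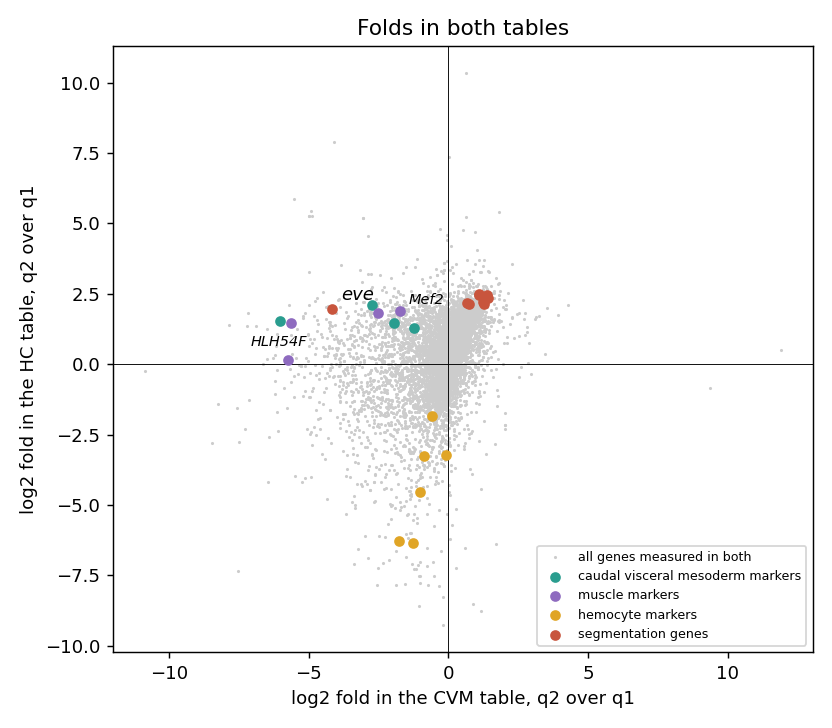
Log2 fold in the CVM table (horizontal axis) against that in the HC table (vertical axis), both q2 over q1, for the 8927 genes measured in both (grey). Coloured points are the segmentation genes and fixed marker lists. The segmentation genes sit together at upper right, and eve sits at upper left among markers of caudal visceral mesoderm and muscle.

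The side on which eve lay was shared by mesodermal markers, and by other genes. Like eve, all 4 caudal visceral mesoderm markers had negative folds in CVM and positive folds in HC. For croc, a forkhead factor, the authors' deposited tables gave -2.74 and 2.11, and for the FGF receptor gene htl they gave -1.93 and 1.47. The 4 muscle markers measured in both tables had the same pattern of signs, except that Mhc turned to -0.49 in HC relative to the table's median, and the fifth, wupA, was not measured in HC. Among them Mef2, the myogenic MADS factor, was called in both of the authors' deposited tables, at -1.73 and 1.89, while myosin heavy chain (Mhc) had -5.73 and 0.13. Of all genes measured in both, 26.3% had these signs, or 15.2% relative to the medians. Among the other segmentation genes 9 of 48 had them, such as hb, and among the epidermal (6), neuroblast (4) and hemocyte (6) markers none did. Whether the fold of eve comes from mesodermal cells was not tested.

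A fold of at least 4-fold higher in q1 of CVM together with at least 2-fold higher in q2 of HC, as for eve, was found for 183 of 8927 genes (2.05%). By a search made after the values were seen, over 8918 genes whether called or not, the genes nearest to eve in both folds were kon, CG31146, CG30411, CG42339 and Ork1. CG30411 was called in neither of the authors' deposited tables (q-values 0.0640 and 0.536) and shares its locus with another gene. The nearest was kon, which encodes a transmembrane protein of growing muscles, with -4.14 and 1.86 in the authors' deposited tables. Ork1, a potassium channel gene, had -4.38 and 2.02 in the authors' deposited tables. Likeness here is the distance over 2 log2 folds and describes 4 libraries.

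Muscle founder identity factors, a list that covers founders of several muscles, did not lie where eve did in CVM. Whether they and eve are expressed in the same cells was not tested. All 8 measured founder genes had a fold above 0 there, with a median of 0.75 and no call, beside 0.728% and 8.23% of all tested genes called toward q2 and q1. In HC all 9 were at least 2-fold higher in q2 (35.4% of all genes, or 16% after centring, under which the 9 also passed) and 7 were called (7.05% of all genes). Their HC median was 2.47, or 1.86 relative to the table. The homeodomain gene slou had 0.62 and 2.92, and the myogenic factor nau 1.23 and 2.63, in the authors' deposited CVM and HC tables. The locus of nau is shared with another gene. The homeobox gene lbe was not tested in CVM and had 4.81 in the authors' deposited HC table, with a large SE of 1.57 (q-value 0.0251).

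Other segmentation genes were compared through 5 lists that hold none of the 10. Of 53 such genes, 50 were found, 48 were measured in CVM and 50 in HC. In CVM 1 was called higher in q2 and 2 in q1, with a median fold of 0.25, beside 0.728% and 8.23% of all tested genes called in those directions. In HC 9 were called higher in q2 and 1 in q1, with a median of 1.28 (0.66 relative to the table), beside 7.05% and 5.92%.

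Gap genes, the earliest zygotic segmentation genes, had a median fold of 0.88 in CVM with none of 7 called. Of all tested genes in CVM, 0.728% were called higher in q2 and 8.23% in q1. In HC the median of the gap genes was 1.83, or 1.22 relative to the table, and 3 of 7 were called higher in q2 (7.05% of all tested genes). These were Kr at 2.41, kni at 2.18 and its relative knrl at 2.17 in the authors' deposited HC table. The zinc finger gene hb was not called in either of the authors' deposited tables, at -0.84 (q-value 0.196) in CVM and 1.83 (q-value 0.0510) in HC. Its difference of 2.67 between the tables came to 3.44 combined SEs.

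Of the other pair-rule and odd-family genes, 7 of 8 had a CVM fold above 0, with a median of 0.57. In CVM 1 was called higher in q2 and 1 in q1, beside 0.728% and 8.23% of all tested genes. The nuclear receptor gene ftz-f1, whose product is the partner of the pair-rule factor Ftz and which later acts in ecdysone responses, was called higher in q1 of the authors' deposited CVM table at -3.68 (q-value 2.34e-08). In the authors' deposited HC table it had -1.36 (q-value 0.139) without a call, so it did not change sides as eve did. Its partner ftz had 0.17 in CVM and 1.83 in HC in the authors' deposited tables, called in neither. The Runt-domain gene run and the zinc finger gene opa were called higher in q2 of the authors' deposited HC table, at 2.11 and 2.01. With bowl, 3 of 8 genes of this list were called higher in q2 of HC, beside 7.05% of all tested genes.

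Segment polarity genes outside the 10 had a median of 0.17 over 11 measured genes in CVM, with no call. Of all tested genes in CVM, 0.728% were called higher in q2 and 8.23% in q1. The Wnt ligand wg, which is maintained next to en stripes, had 0.87 (q-value 0.240) in CVM and 2.10 (q-value 0.0247) in HC in the authors' deposited tables. The T-box gene mid had 1.19 (not called) and 2.31 (called) in the authors' deposited tables. Over 12 genes the HC median was 1.02, or 0.40 relative to the table. Of these, 3 were called higher in q2 (gsb-n, mid and wg), beside 7.05% of all tested genes.

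Of the genes for sending and receiving the Hedgehog signal, 16 were measured and none was called in either table. Of all tested genes, 0.728% (CVM) and 7.05% (HC) were called higher in q2, and 8.23% (CVM) and 5.92% (HC) higher in q1. The medians of these 16 genes were 0.03 in CVM and 0.84 in HC, or 0.22 relative to the HC table. The receptor and target gene ptc had 0.32 and 0.93 in the authors' deposited CVM and HC tables. The transducer smo had -0.07 and 0.90, and the transcription factor ci 0.57 and 0.98, in the authors' deposited tables. Among these genes the highest HC fold was that of shf, which encodes a secreted factor for Hedgehog movement, at 1.84 (SE 0.82, q-value 0.114 in the authors' deposited table), which is within 1 SE of the fold of hh. Like hh, both shf and smo share their loci with other genes.

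Relatives of D went both ways. SoxN, the SoxB gene used with D in the early nervous system, had 0.83 in CVM and -0.68 in HC in the authors' deposited tables, called in neither. Sox14 was called higher in q1 of both of the authors' deposited tables, at -2.44 (q-value 5.51e-07) and -1.71 (q-value 0.0286). Of all tested genes, 8.23% in CVM and 5.92% in HC were called in that direction. The other Sox genes had no call, and the list's medians were 0.61 in CVM and 1.81 in HC (1.19 relative to the table). Of the cofactors of homeodomain factors, hth was called at 0.98 in the authors' deposited CVM table and its test failed in HC, while exd had 0.20 and 0.66 and was not called.

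**Figure D3:**
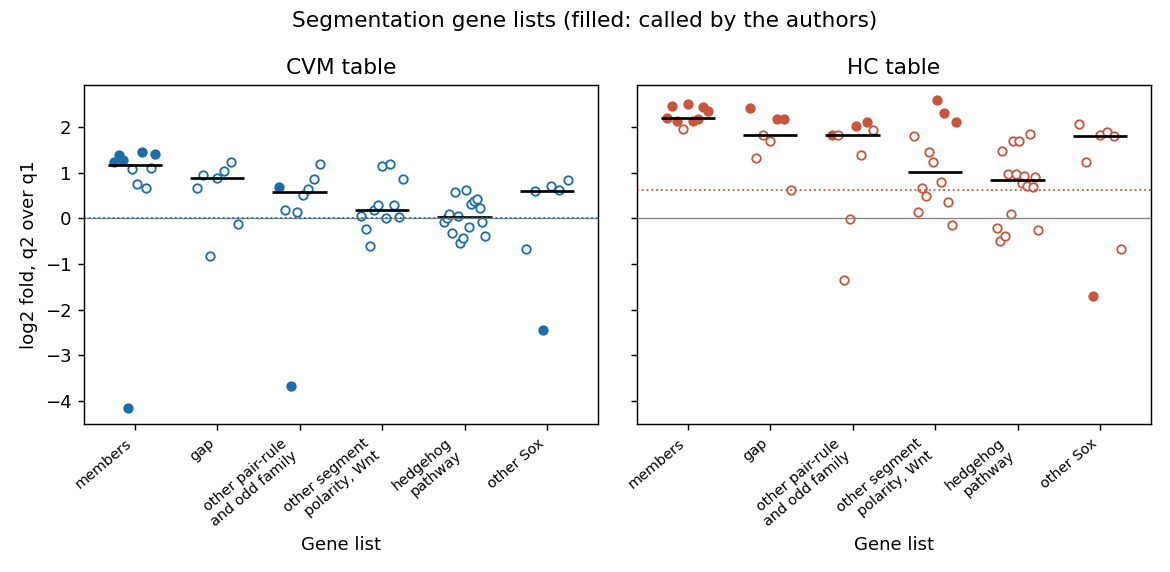
Log2 fold (q2 over q1, vertical axis) of each measured gene on 6 lists in the authors' deposited CVM table (left) and HC table (right). Filled points were called by the authors, black bars are list medians, and dotted lines are the medians of all genes. The lowest point of the members in CVM is eve at -4.16, and that of the pair-rule list is ftz-f1 at -3.68.

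Position in the genome was not used to choose the genes. Around the 10 lie 16 distinct nearest neighbours that are not among them, including the relatives sob and gsb-n. Of the 14 measured in CVM, none was called higher in q2 and 1 was called higher in q1, with a median fold of 0.53. The shares of all tested genes in CVM were 0.728% and 8.23%. In HC 6 of 15 neighbours were called higher in q2 (7.05% of all tested genes) and none in q1 (5.92%). The HC median of the neighbours was 1.81, beside 0.62 for all measured genes.

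Neither gene beside eve lay on its side in CVM. CG12134 and TER94, the latter an AAA ATPase gene, lie 6450 and 8381 bases from eve and had 0.51 and 0.29 in the authors' deposited CVM table, both not called. In HC CG12134 was called at 1.94 in the authors' deposited table, about the fold of eve, and TER94 had 0.45. The single neighbour called in the direction of eve in CVM was gol, an E3 ubiquitin ligase gene 7983 bases from gsb, with -2.02 (q-value 0.00400) in CVM and 2.03 (q-value 0.00289) in HC in the authors' deposited tables. E(Pc), 10434 bases from inv, had 0.18 and 0.997 in the authors' deposited tables and was not called.

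**Figure D4:**
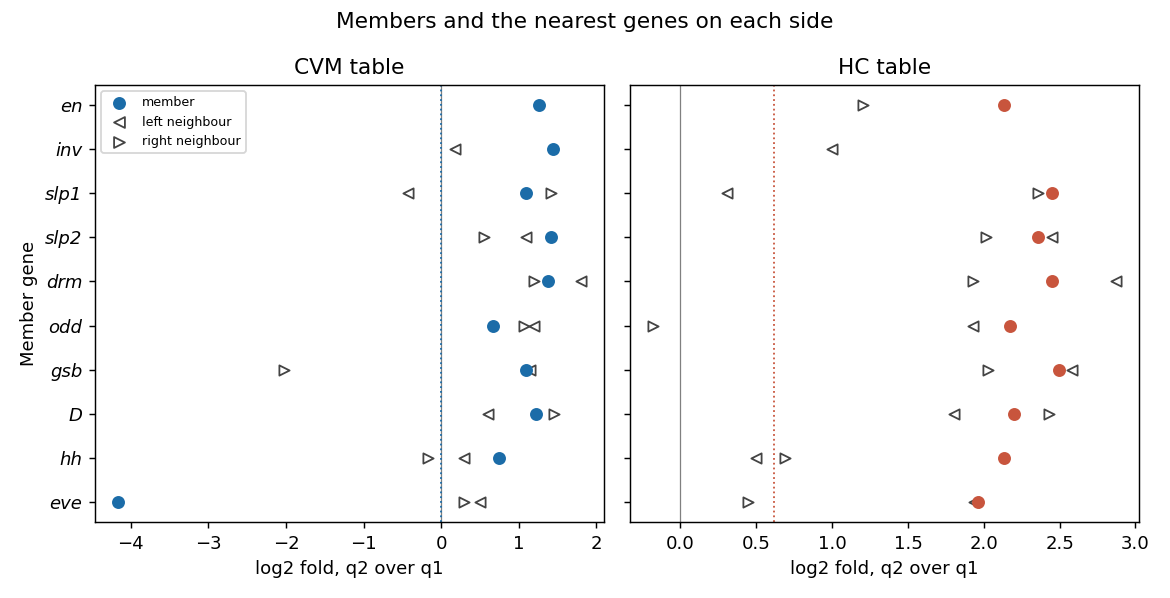
Log2 fold (q2 over q1, horizontal axis) of each of the 10 genes (filled circles) and of the nearest gene on its left and right (open triangles) in the authors' deposited CVM table (left panel) and HC table (right panel). Genes with no measured fold have no point, and dotted lines are the tables' medians. The neighbours of eve lie at 0.51 and 0.29 in CVM while eve lies at -4.16.

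Genes like the segmentation genes other than eve were sought only among 240 genes called in both tables. Distance was taken from the median folds of those segmentation genes, 1.23 in CVM and 2.28 in HC. The 5 nearest were the Hox gene Ubx (1.36 and 2.36), the zinc finger gene ab (1.32 and 2.14), CG10933 (1.40 and 2.31), CG13333 (1.10 and 2.10) and the trunk homeotic gene tsh (1.02 and 2.21), each given as CVM and HC folds of the authors' deposited tables. Ubx, ab and CG10933 share their loci with other genes. The limit to called genes is one that slp1, odd, hh and gsb do not pass in CVM. It also left out mid (1.19 and 2.31) and knrl (1.24 and 2.17), not called in the authors' deposited CVM table. Both lie closer to those medians than any of the 5, so the 5 are not the nearest of all genes. Of the 8927 genes measured in both tables, 36 were called higher in q2 of both. Among these were 4 of the 9 members measured in both (en, slp2, drm and D). The members were chosen with these contrasts known, so nothing is read from this overlap.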

How the data were processed

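The authors deposited 2 gene tables, and per the submitters' processing notes the tools were TopHat 1.3.3, Bowtie 0.12.7, Cuffdiff and Cufflinks 1.3.0, and the build BDGP5. Per the file headers, folds are log2 for CVM and natural log for HC, deposited as a score in which a very large number stands for an infinite fold. HC folds were then put on the log2 scale. The deposited test statistic is also a score, and its ratio to the fold gave the implied SE. The p-value and q-value are the authors', per the file headers. As 568 q-values of HC lay above 1, that column is a score read at its low end. The 4 columns of expression per condition could not be matched to a sample and were not used.

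Genes counted as tested when their status was OK, except 316 HC genes whose fold and statistic were exactly 0, and as measured when the fold was also finite. Of 101 genes on the 13 lists, 3 had no matching symbol. The members and lists were chosen with earlier results of these data known. Named genes are the members, up to 3 called genes of each list per direction and table or else its largest fold, the nearest genes on each side, and the 5 nearest in both folds. Further list genes named for their role, such as ptc, smo, ci, ftz and SoxN, were picked after their values were seen. Locus starts were raised by 1 to count from 1. A planned motif search in promoters was not made, since no sequence was used here. Reading of folds and errors was tested on simulated data. Python 3.11.15 with pandas 2.3.3 was used.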

Additional observations from a re-analysis of the deposited data

Results flagged for a closer look

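The log2 fold of eve was 6.12 higher in the HC table than in the CVM table, with opposite directions: higher in q1 of CVM (-4.16) and higher in q2 of HC (1.96) in the authors' deposited tables. It was picked out because the folds had opposite directions, and this departure of eve was already known when the genes were chosen. The pairs of libraries differ in the sorted cell type as well as in stage. The difference was not tested over samples, and what part mesodermal cells have in it was not tested.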

How the results depend on the processing

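With the authors' threshold at a q-value under 0.01, 1 of the segmentation genes stayed called higher in q2 of CVM and 3 in HC, in place of 5 and 8. By a 3-fold size rule, 0 were higher in q2 of CVM in place of 7. For the 5 lists of other segmentation genes, calls higher in q2 of CVM were 2 at a q-value under 0.1 and 0 when a 2-fold difference was also required, in place of 1. Their calls in HC were 2 at 0.01 and 17 at 0.1 in place of 9, and those higher in q1 of HC were 0 at 0.01 in place of 1. The other 24 of 32 recomputed counts and medians kept their direction and stayed within 1.5 times the count or within the implied SE. So did all 19 centred folds of single genes, but they could not have done otherwise. Centring subtracts 0.00467 (CVM) or 0.62 (HC), which is less than the implied SE of each of these genes. Among the 24, the centred medians of the 10 genes were fixed in the same way. The CVM count at 2-fold after centring moved its cut by only 0.00467. In CVM the median over genes of every status was also fixed, since all 10 were measured. No paired analysis was possible because each population has 1 library. The depth is unknown, and the precision rests on implied SEs whose medians were 0.54 (CVM) and 0.72 (HC) on the log2 scale.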
